A study of Mus musculus with 9 samples.

Results

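Nanog and 6 genes beside it on mouse chromosome 6 (Apobec1, Gdf3, Dppa3, Slc2a3, Foxj2 and Necap1) were followed in 3 lines of mouse embryonic stem cells. They are 7 of the 52636 gene IDs in the deposited count table, and all 7 had enough reads to be among the 16198 genes tested. The genes were chosen by position around Nanog and with measured values in view, namely a large fall of Dppa3 beside an altered Nanog, in these same 9 libraries. Their values are therefore a description, and no p-value is given for any of the 7.

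The Esrrb+Nanog line (titled NanogKO:Esrrb:Nanog, 44JN) and the Esrrb line (titled NanogKO:Esrrb, 44J) share the genotype label N{delta}:cE:iN, and the Nanog-null line (titled NanogKO, 44C6) has the label N{delta}. Loss of Nanog is thus common to all 3 titles. Each had 3 libraries of total RNA from cells kept in serum with LIF (leukaemia inhibitory factor), given no treatment, and sorted as PECAM-positive and PDGFRA-negative. The labels name neither the promoters that drive the added genes nor the part of Nanog that was removed. Every group is a single line, so a difference between groups and a difference between lines cannot be told apart. The labels do not say whether the replicates were separate cultures, so the spread between them may be technical.

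Nanog encodes a homeodomain protein that sustains self-renewal of embryonic stem cells and lies in a cluster of genes used by early embryos and germ cells. Dppa3, also called Stella or PGC7, encodes a small maternal protein that in mouse oocytes keeps the maintenance methylation factor UHRF1 away from chromatin. Gdf3 encodes a ligand of the transforming growth factor beta family, Apobec1 a cytidine deaminase that edits apolipoprotein B messenger RNA, and Slc2a3 the glucose transporter GLUT3. Foxj2 encodes a forkhead transcription factor and Necap1 a protein of clathrin-coated vesicles.

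By GENCODE M21 (mm10) the order from the centromere side is Apobec1, Gdf3, Dppa3, Nanog, Slc2a3, Foxj2 and Necap1. Apobec1 (ENSMUSG00000040613, 122577792 to 122602444, minus strand) starts at -105 kb from the Nanog start, and the body of Nanog runs from 122707489 to 122714633 on the plus strand (ENSMUSG00000012396). Between them lie Gdf3 (ENSMUSG00000030117, 122605403 to 122610087, minus strand) and Dppa3 (ENSMUSG00000046323, 122626410 to 122630272, plus strand), whose start is at -81.1 kb. On the other side are Slc2a3 (ENSMUSG00000003153, 122727809 to 122801640, minus strand), Foxj2 (ENSMUSG00000003154, 122819914 to 122845366, plus strand) and Necap1 (ENSMUSG00000030327, 122874474 to 122888941, plus strand). Slc2a3 starts at 94.2 kb, Foxj2 at 112.4 kb and Necap1 at 167 kb from the Nanog start.

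Promoter sequences were taken from RefSeq (GRCm38.p6), which covered 4 of the 7 genes with windows of 300 bases, from 250 before to 50 after a transcript start. The windows of Nanog (chr6:122707239-122707538, plus strand) and Apobec1 (chr6:122602395-122602694, minus strand) are shown because they belong to the 2 of these 4 genes whose levels differed most between lines. They are written 5′ to 3′ along the gene. Capitals mark every match, on either strand, to 4 short motifs: TTTGCAT (bound by OCT factors), ACAATG (SOX factors), AAGGTCA (ESRRB) and TAATGG (NANOG).

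Nanog: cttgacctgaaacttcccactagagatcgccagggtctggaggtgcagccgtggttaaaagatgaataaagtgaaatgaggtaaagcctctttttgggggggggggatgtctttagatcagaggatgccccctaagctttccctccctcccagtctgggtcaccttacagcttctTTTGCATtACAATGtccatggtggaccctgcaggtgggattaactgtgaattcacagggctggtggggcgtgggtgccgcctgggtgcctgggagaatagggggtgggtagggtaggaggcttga

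Apobec1: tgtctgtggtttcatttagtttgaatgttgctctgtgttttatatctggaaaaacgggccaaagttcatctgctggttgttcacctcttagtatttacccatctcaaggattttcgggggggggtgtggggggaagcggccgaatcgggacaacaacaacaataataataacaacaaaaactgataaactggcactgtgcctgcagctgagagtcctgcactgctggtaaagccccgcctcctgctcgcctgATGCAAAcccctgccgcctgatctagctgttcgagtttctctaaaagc

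The Nanog window held the OCT letters at positions -75 to -69 from the start and the SOX letters at -67 to -62, with 1 base between them. A second annotated start of Nanog has the same pair in its window. Of 32851 promoter windows of this length, 4.63% held the OCT letters, 12.6% the SOX letters, 4.72% the ESRRB letters and 7.73% the NANOG letters. The OCT letters followed by the SOX letters after 1 base were found in 2 windows, both of Nanog. Apobec1 had a single match, the OCT letters on the opposite strand at positions 3 to 9. The windows of Foxj2 and Necap1 had none of the 4 motifs. GC content was 48.3% for Apobec1, 54.3% for Nanog, 59.0% for Necap1 and 78.3% for Foxj2, against a median of 52.7% over all windows. Such matches describe letters only.

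Levels are given as CPM (counts scaled to a common library size), for each of the 3 libraries of a line. Library totals ran from 21808120 to 32496267 reads. Esrrb, the gene named in 2 of the 3 titles, averaged 1106 ± 47.8 CPM in the Esrrb+Nanog line, 802 ± 132 in the Esrrb line and 276 ± 25.0 in the Nanog-null line (SD, n = 3 each). Nanog and Dppa3 differed between every pair of lines, and in opposite directions. Apobec1 differed between the Nanog-null line and both others. Gdf3, Slc2a3, Foxj2 and Necap1 lay within 1.14-fold of each other between any pair of lines by the fitted change.

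**Figure D1:**
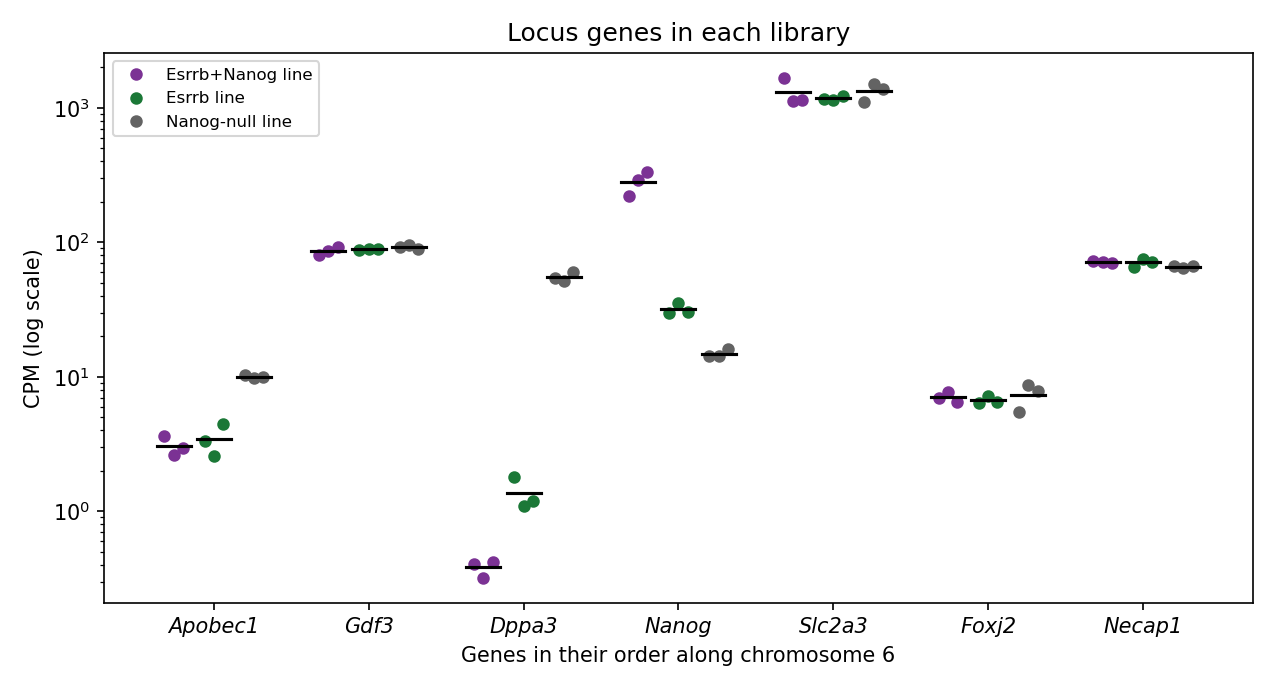
CPM (log scale) of the 7 genes in each of the 9 libraries, in their order along the chromosome; points are libraries and bars are the means of 3 per line. Dppa3 steps up and Nanog steps down across the Esrrb+Nanog, Esrrb and Nanog-null lines, while Gdf3 stays between 80.3 and 94.8 CPM in all 9 libraries.

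Nanog, the altered gene, had 221, 289 and 332 CPM in the Esrrb+Nanog libraries, 29.7, 35.1 and 30.4 CPM in libraries of the Esrrb line, and 14.3, 14.3 and 16.0 CPM in those of the Nanog-null line. The 3 lines did not overlap, and the order was the same whichever library stood for a line. The fitted log2 change was 3.15 ± 0.13 (SE) for the Esrrb+Nanog line over the Esrrb line, 1.09 ± 0.14 for the Esrrb line over the Nanog-null line and 4.24 ± 0.14 for the Esrrb+Nanog line over the Nanog-null line. Among the 16198 genes, Nanog had the 11th largest rise in the first of these comparisons, the 1087th in the second and the 81st in the third. For the Esrrb+Nanog and Esrrb lines, with 22699 and 2766 reads, the counts do not separate reads of an added Nanog from reads of the altered locus. The labels of the Nanog-null line name no added Nanog, and it had 1160 reads. No other annotated transcript matched a Nanog transcript at 90% identity over 400 bases or more.

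Dppa3 had 0.406, 0.321 and 0.420 CPM in the Esrrb+Nanog libraries, 1.80, 1.10 and 1.19 CPM in libraries of the Esrrb line, and 54.1, 51.9 and 59.8 CPM in those of the Nanog-null line. These are counts of 11, 8 and 12 reads, then 52, 35 and 31, then 1168, 1349 and 1790. All Nanog-null libraries stood far above the others, and the Esrrb and Esrrb+Nanog libraries did not overlap either. The Esrrb line was 40.5-fold lower than the Nanog-null line by the fitted change (log2 -5.34 ± 0.15, SE), the 17th largest fall of 16198 genes. The Esrrb+Nanog line was 142-fold lower than the Nanog-null line (log2 -7.15 ± 0.18, the 18th largest fall). Against the Esrrb line it was 3.51-fold lower (log2 -1.81 ± 0.25, the 109th largest fall).

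The second Dppa3 step rests on few reads. The 31 reads of the Esrrb+Nanog line together give 0.261 to 0.546 CPM as a 95% exact Poisson interval, and the 118 reads of the Esrrb line give 1.12 to 1.63 CPM. These intervals cover counting error only. In bulk RNA, fewer cells with Dppa3 and less Dppa3 RNA per cell cannot be told apart. A copy on the X chromosome, Dppa3-ps, is 98.2% identical to a Dppa3 transcript over 451 bases, so reads can be divided between them in a way the counts do not show. Dppa3-ps had 0 reads in the Esrrb+Nanog line, 0 in the Esrrb line and 9 in the Nanog-null line, and a more distant copy on chromosome 14 had 1 read, in the Nanog-null line.

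Dppa3 is also used as a marker of primordial germ cells, so other germ cell markers are set beside it. Prdm1, a repressor that specifies these cells, ran from 3.78 to 8.04 CPM in the Esrrb+Nanog libraries, from 6.45 to 15.7 in the Esrrb libraries and from 49.4 to 55.8 in the Nanog-null libraries. Tfap2c, a partner factor, ran from 17.4 to 23.1, from 13.4 to 34.2 and from 44.3 to 55.0 CPM in the Esrrb+Nanog, Esrrb and Nanog-null libraries. Both were thus highest in the Nanog-null line, as Dppa3 was. Ddx4, an RNA helicase of later germ cells, was ordered the other way, with 29.9 to 35.8, 16.2 to 23.5 and 13.8 to 15.2 CPM in the same 3 lines, and Dazl was lowest in the Nanog-null libraries (at most 5.45 CPM there, and 11.1 CPM or more in every other library). Nanos3 ran from 0.959 to 1.47, from 0.729 to 1.01 and from 0.602 to 0.924 CPM in the same lines. Dnd1 ran from 20.4 to 25.1, from 19.7 to 26.2 and from 17.0 to 20.5 CPM. The 6 germ cell markers summed to 87.4 to 96.5 CPM, 82.1 to 107 CPM and 137 to 146 CPM in the Esrrb+Nanog, Esrrb and Nanog-null libraries, and none was at 0 in any line. Only Prdm1 and Tfap2c were higher in the Nanog-null line, so the higher sum there came from them. The part of germ cells in the Dppa3 values was not tested.

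Apobec1, the nearest member to Gdf3, had 3.61, 2.61 and 2.97 CPM in the Esrrb+Nanog libraries, 3.31, 2.58 and 4.49 CPM in libraries of the Esrrb line, and 10.3, 9.77 and 9.89 CPM in those of the Nanog-null line. The Nanog-null libraries lay above all 6 others, whose own ranges overlapped. The log2 change was -1.54 ± 0.19 (SE) for the Esrrb line over the Nanog-null line and -1.70 ± 0.19 for the Esrrb+Nanog line over the Nanog-null line, a level 2.90-fold and 3.25-fold lower. Between the Esrrb+Nanog and Esrrb lines it was -0.16 ± 0.20, and the sign turned to 0.06 without Esrrb replicate 3. Relative spread was 16.6% of the mean in the Esrrb+Nanog line, 27.9% in the Esrrb line and 2.90% in the Nanog-null line.

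Gdf3, the ligand gene between Apobec1 and Dppa3, was nearly level. It had 80.3, 86.5 and 92.1 CPM in the Esrrb+Nanog libraries, 87.8, 89.5 and 88.5 CPM in libraries of the Esrrb line, and 92.5, 94.8 and 88.4 CPM in those of the Nanog-null line. The ranges overlapped for every pair of lines. Its log2 changes were -0.05 ± 0.06 (Esrrb over Nanog-null), -0.04 ± 0.06 (Esrrb+Nanog over Esrrb) and -0.09 ± 0.06 (Esrrb+Nanog over Nanog-null). The second of these was 0.03 with library totals in place of scaled sizes, and 0.02 without Esrrb+Nanog replicate 1. Gdf3 is the next tested gene to Dppa3 on that side, with starts at -97.4 kb and -81.1 kb, and the 40.5-fold difference of Dppa3 had no counterpart in it.

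Slc2a3, the glucose transporter on the other side of Nanog, was the most abundant of the 7. It had 1666, 1121 and 1146 CPM in the Esrrb+Nanog libraries, 1163, 1140 and 1221 CPM in libraries of the Esrrb line, and 1112, 1514 and 1380 CPM in those of the Nanog-null line. One library of the Esrrb+Nanog line was high and one of the Nanog-null line low, and all ranges overlapped. The log2 change was -0.19 ± 0.14 for the Esrrb line over the Nanog-null line. It was 0.16 ± 0.14 for the Esrrb+Nanog line over the Esrrb line, and -0.04 without Esrrb+Nanog replicate 1. Against the Nanog-null line the Esrrb+Nanog line differed by -0.03 ± 0.14, a change that ran from -0.24 without Esrrb+Nanog replicate 1 to 0.08 without Esrrb+Nanog replicate 2 and was also positive without Esrrb+Nanog replicate 3 (0.06) or Nanog-null replicate 2 (0.07).

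Foxj2, a weakly expressed forkhead gene, had 6.90, 7.76 and 6.47 CPM in the Esrrb+Nanog libraries, 6.42, 7.17 and 6.49 CPM in libraries of the Esrrb line, and 5.51, 8.62 and 7.89 CPM in those of the Nanog-null line. The Nanog-null line held both the lowest and the highest of the 9 values. Its log2 changes were -0.14 ± 0.16 (Esrrb over Nanog-null), 0.07 ± 0.16 (Esrrb+Nanog over Esrrb) and -0.07 ± 0.16 (Esrrb+Nanog over Nanog-null), and the last was 0.05 without Nanog-null replicate 2. An antisense gene inside Foxj2, Gm26826, had 3, 1 and 6 reads in the Esrrb+Nanog, Esrrb and Nanog-null lines, against 565, 583 and 579 of Foxj2.

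Necap1, the endocytic gene at the far end, had 72.5, 71.8 and 70.2 CPM in the Esrrb+Nanog libraries, 65.9, 75.0 and 71.5 CPM in libraries of the Esrrb line, and 66.3, 63.9 and 66.2 CPM in those of the Nanog-null line. The Esrrb+Nanog libraries lay above the Nanog-null libraries without overlap, but by 9.22% only. The log2 change there was 0.13 ± 0.06, and 0.11 ± 0.06 for the Esrrb line over the Nanog-null line. Between the Esrrb+Nanog and Esrrb lines it was 0.01 ± 0.06, and -0.04 without Esrrb replicate 1.

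For the Esrrb line over the Nanog-null line, 3 of the 7 genes were past the threshold of the fit across all genes (edgeR's quasi-likelihood test, adjusted p under 0.05), namely Nanog in the higher and Dppa3 and Apobec1 in the lower direction. Of all genes, 48.5% were. For the Esrrb+Nanog line over the Esrrb line, 2 of 7 were past it, Nanog and Dppa3, against 13.2% of all genes (880 higher, 1255 lower). Higher genes were 41.2% of those calls, and 59.6% with library totals in place of scaled sizes. For the Esrrb+Nanog line over the Nanog-null line it was 3 of 7 again, against 54.4%. The median log2 change of the 7 was -0.14, 0.01 and -0.07 in these 3 comparisons, beside 0.01, -0.01 and 0 over all genes. Since the genes were picked with these comparisons known, nothing is read from the counts. The comparisons also share libraries with each other.

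Divided by exon length, levels can be ordered between genes. In the Esrrb+Nanog line the order of the levels was Slc2a3 (181 CPM per kb), Nanog (125), Gdf3 (35.6), Necap1 (19.6), Foxj2 (1.32), Apobec1 (1.13) and Dppa3 (0.429). Only Foxj2 and Apobec1 overlapped as neighbours in that order. In the Esrrb line it was Slc2a3 (162 CPM per kb), Gdf3 (36.6), Necap1 (19.4), Nanog (14.1), Dppa3 (1.53), Apobec1 (1.28) and Foxj2 (1.25). Here the last 3 overlapped one another.

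In the Nanog-null line the order was Slc2a3 (184 CPM per kb), Dppa3 (62.0), Gdf3 (37.9), Necap1 (17.9), Nanog (6.64), Apobec1 (3.70) and Foxj2 (1.37), with no overlap between neighbours. Dppa3 thus held the last place in the Esrrb+Nanog line and the second in the Nanog-null line. On this scale Dppa3 was above 18.6%, 36.2% and 95.4% of all tested genes in the Esrrb+Nanog, Esrrb and Nanog-null lines, and Nanog above 98.2%, 76.1% and 60.8%. Slc2a3 was above 98.8%, 98.6% and 98.9%, so its place hardly differed.

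**Figure D2:**
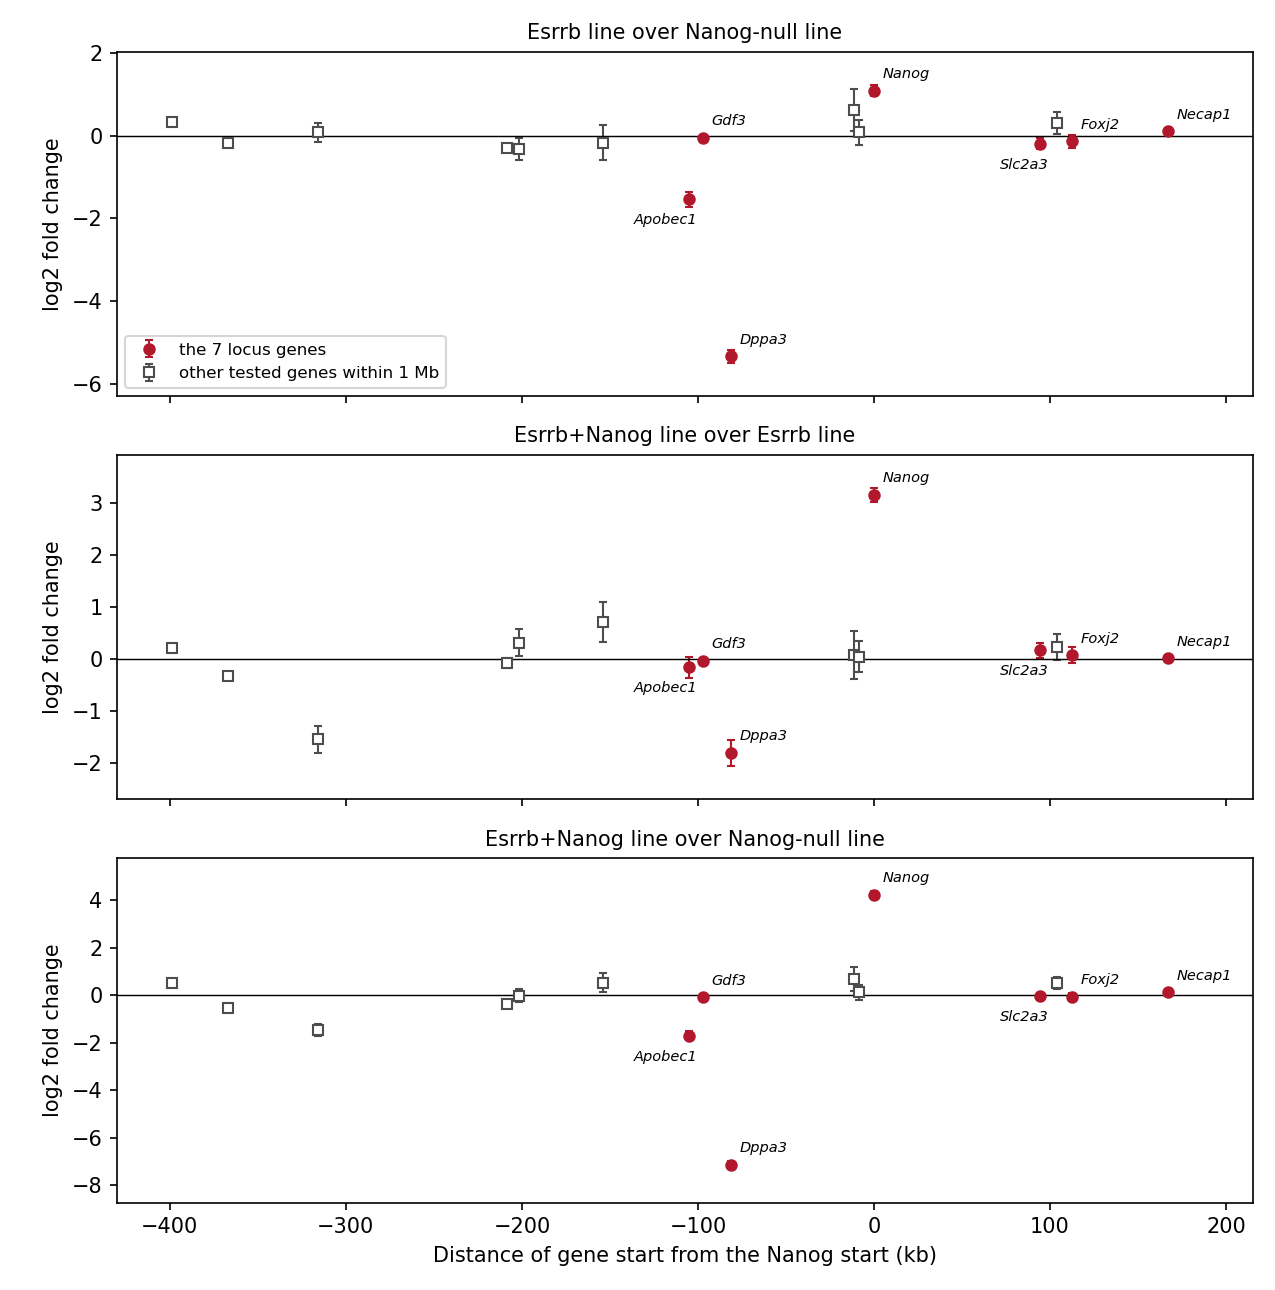
Fitted log2 fold change (bars are SE) of the 16 tested genes within 1 Mb of Nanog against the distance of their start from the Nanog start in kb, 1 panel per comparison, each with its own vertical scale. Dppa3 at -81.1 kb is the lowest point in each panel (-5.34, -1.81 and -7.15) and Nanog at 0 the highest (1.09, 3.15 and 4.24), with Gdf3 at -97.4 kb near 0 in all 3; Gm10420 in the top panel (0.62 ± 0.51) has an error bar that reaches the one of Nanog, and 1700063H04Rik in the middle panel (-1.55 ± 0.26) lies near Dppa3.

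The wider neighbourhood was taken by position alone, as all genes with a body that reaches within 1 Mb of the Nanog start. It held 65 gene IDs, of which 58 were not among the 7. Of these 58, 35 had no read in any library and 9 could be tested. For the Esrrb line over the Nanog-null line, 1 of the 9 was higher and 2 were lower. The Esrrb+Nanog line had 1 higher and 2 lower against the Esrrb line, and 1 higher and 3 lower against the Nanog-null line, beside the 48.5%, 13.2% and 54.4% of all genes. The called genes, named next, all lay on the Apobec1 side, at -208.7 kb or farther from Nanog. Only 1 gene on the other side, Gm5112, could be tested.

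M6pr, a receptor that sorts enzymes to lysosomes, had 174, 179 and 177 CPM in the Esrrb+Nanog libraries, 142, 164 and 155 in the Esrrb libraries and 122, 121 and 122 in the Nanog-null libraries. It rose in the Esrrb line over the Nanog-null line (log2 0.34 ± 0.06, adjusted p = 0.000737) and in the Esrrb+Nanog line over the Nanog-null line (0.54 ± 0.06, adjusted p = 1.93e-05). For the Esrrb+Nanog line over the Esrrb line, the log2 change of 0.20 ± 0.06 had an adjusted p of 0.0486. The call was lost with median-of-ratios factors (0.0521), with no low-count filter (0.072), in a fit of only the 2 lines (0.0795) and without any library but Esrrb replicate 2 (up to 0.203, without Esrrb replicate 1).

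Phc1, a Polycomb gene next to M6pr, went the other way. It had 702, 668 and 652 CPM in the Esrrb+Nanog libraries, 872, 773 and 914 in the Esrrb libraries and 975, 950 and 970 in the Nanog-null libraries. It fell in the Esrrb+Nanog line over the Nanog-null line (log2 -0.52 ± 0.07, adjusted p = 4.84e-05) and over the Esrrb line (-0.34 ± 0.07, adjusted p = 0.00614). The smaller difference between the Esrrb and Nanog-null lines (-0.18 ± 0.07, adjusted p = 0.041) was not called in a fit of only the 2 lines (0.0519) or without Esrrb replicate 1 (0.0734) or 2 (0.164), Nanog-null replicate 1 (0.0513) or 3 (0.0677), or Esrrb+Nanog replicate 2 (0.0628).

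The noncoding RNA 1700063H04Rik, named after its values were seen because so few genes were called, had 20, 27 and 17 reads in the Esrrb+Nanog libraries, 70, 62 and 70 in the Esrrb libraries and 38, 61 and 75 in the Nanog-null libraries. It fell in the Esrrb+Nanog line over the Esrrb line (log2 -1.55 ± 0.26, adjusted p = 0.00265) and over the Nanog-null line (-1.47 ± 0.26, adjusted p = 0.000554). Its change between the Esrrb and Nanog-null lines was 0.08 ± 0.23 (adjusted p = 0.803). It starts at -316.1 kb, with Rimklb, a glutamate ligase gene, between it and the 7 genes. Rimklb averaged 50.3 ± 3.70, 53.2 ± 7.77 and 65.3 ± 3.16 CPM in the Esrrb+Nanog, Esrrb and Nanog-null lines (SD, n = 3 each). It fell in the Esrrb+Nanog line over the Nanog-null line (log2 -0.37 ± 0.10, edgeR adjusted p = 0.00765). Its fall in the Esrrb line over the Nanog-null line (-0.30 ± 0.10, adjusted p = 0.0286) lost its call without Esrrb replicate 2 (0.0971) or Nanog-null replicate 1 (0.063).

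The 2 processed pseudogenes between Dppa3 and Nanog, Gm10420 and Gm10224, had 2 to 18 reads per library and were not called in any comparison, with log2 changes from 0.04 ± 0.30 to 0.69 ± 0.51. They are the nearest tested neighbours of Nanog.

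Genes with a pattern over the 9 libraries like that of Nanog or Dppa3 were sought among 13824 named genes, by the root mean square difference of log2 CPM after each gene was centred on its own mean. The nearest to Nanog were Sema5b (difference 0.24), Il6ra (0.44), Duox1 (0.50), Myo1f (0.58) and Ptgs1 (0.58). Sema5b, a semaphorin gene, had 15.1 ± 1.12 CPM in the Esrrb+Nanog line, 1.84 ± 0.127 in the Esrrb line and 0.600 ± 0.137 in the Nanog-null line (SD, n = 3 each). All 5 had their highest mean level in the Esrrb+Nanog line and their lowest in the Nanog-null line, which follows from how they were chosen. None is on chromosome 6. The share of candidates on that chromosome is not given, so nothing is read from this.

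Among the nearest to Dppa3, chosen by likeness in the same way, were Trim67 (0.53), Gbp2 (0.53), Gbp2b (0.63) and Rbbp8nl (0.66). Again none is on chromosome 6, and nothing is read from it. Rbbp8nl had 0.0490 ± 0.0182 CPM in the Esrrb+Nanog line, 0.187 ± 0.0385 in the Esrrb line and 5.33 ± 0.566 in the Nanog-null line. Gbp2, an interferon-induced GTPase gene, had no read in the Esrrb+Nanog line and averaged 0.136 ± 0.0461 CPM in the Esrrb line and 8.92 ± 5.56 in the Nanog-null line. The prior count of 2 in the log2 values used for likeness raises such low levels. Gbp2 and Gbp2b are close relatives, so their reads can be shared.

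**Figure D3:**
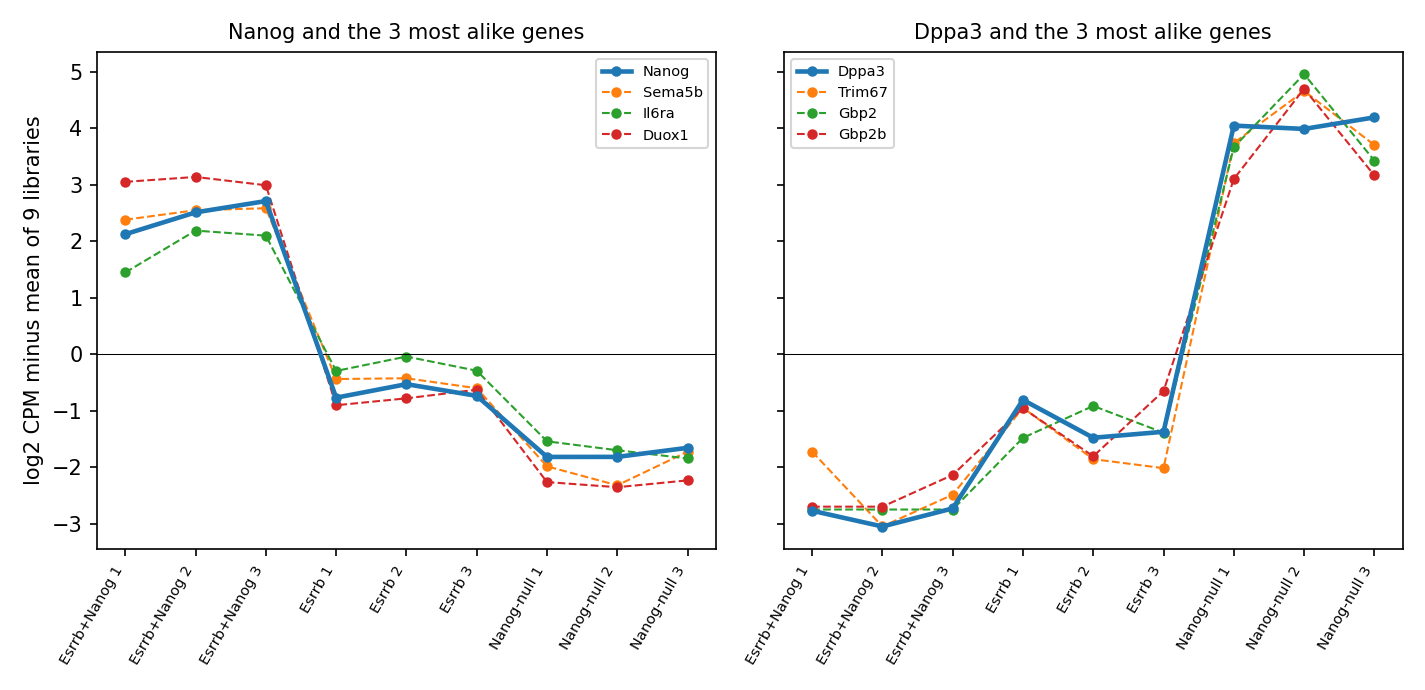
Log2 CPM minus the mean of the 9 libraries for Nanog (left), Dppa3 (right) and the 3 genes nearest to each, by library. Nanog and its nearest genes are highest in the 3 Esrrb+Nanog libraries, and Dppa3 and its nearest genes in the 3 Nanog-null libraries. The nearest genes were chosen for this likeness.

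Genes that work with the 7 were counted in 7 lists written from general knowledge. Each count stands beside 48.5% of all genes called in the Esrrb line over the Nanog-null line, 13.2% in the Esrrb+Nanog line over the Esrrb line and 54.4% in the Esrrb+Nanog line over the Nanog-null line, and nothing is called particular to a list. Of 16 Nanog co-factors and pluripotency regulators, 9 were higher and 1 lower in the Esrrb line over the Nanog-null line. The Esrrb+Nanog line had 3 higher and 6 lower against the Esrrb line, and 8 higher and 5 lower against the Nanog-null line. The list's median log2 change was 0.24, -0.10 and 0.19 in the 3 comparisons. Esrrb is a list member and is counted among the higher genes, but the titles of the Esrrb+Nanog and Esrrb lines name it. Its log2 change of 2.00 ± 0.11 in the Esrrb+Nanog line over the Nanog-null line is therefore not read as a result for the list. Klf4, a Krüppel-like factor, averaged 287 ± 16.8, 127 ± 37.7 and 6.64 ± 0.822 CPM in the Esrrb+Nanog, Esrrb and Nanog-null lines (SD, n = 3 each), the order of the Nanog levels, and it rose in all 3 comparisons (adjusted p up to 0.000708). Prdm14, a repressor of differentiation genes, rose in the Esrrb+Nanog line over the Esrrb line (log2 0.92 ± 0.12, edgeR adjusted p = 0.000676) but had a change of 0.05 ± 0.13 in the Esrrb line over the Nanog-null line (adjusted p = 0.761). Tbx3, a T-box factor, had the other pattern, with a called log2 change of 3.19 ± 0.19 (adjusted p = 2.56e-07) for the Esrrb line over the Nanog-null line and 0.16 ± 0.17 (adjusted p = 0.581) for the Esrrb+Nanog line over the Esrrb line.

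For Dppa3 the list held UHRF, DNA methyltransferase and TET genes with Tdg and Xpo1, 11 in all. Against the Nanog-null line, 4 were higher and 4 lower in the Esrrb line. The Esrrb+Nanog line had 0 higher and 3 lower against the Esrrb line, and 4 higher and 6 lower against the Nanog-null line. The median log2 changes were 0.03, 0.03 and -0.24. Uhrf1, whose protein DPPA3 restrains in mouse oocytes, averaged 522 ± 18.6 CPM in the Esrrb+Nanog line, 512 ± 25.9 in the Esrrb line and 379 ± 6.79 in the Nanog-null line. It was among the 4 list genes that rose in the Esrrb line over the Nanog-null line (log2 0.43 ± 0.06, adjusted p = 7.4e-05), opposite in sign to Dppa3. The 4 that fell there, among them its relative Uhrf2 (-0.52 ± 0.08, adjusted p = 0.00019), had the sign of Dppa3. Tet2, an oxidase that starts demethylation, rose in the Esrrb+Nanog line over the Nanog-null line (1.33 ± 0.14, adjusted p = 1.41e-05). The methyltransferase gene Dnmt3b fell in that comparison (-1.05 ± 0.08, adjusted p = 7.18e-07), and Dnmt3a fell in the Esrrb+Nanog line over the Esrrb line (-1.04 ± 0.09, adjusted p = 3.8e-05) and rose in the Esrrb line over the Nanog-null line (0.80 ± 0.09, adjusted p = 2.16e-05).

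Around Gdf3, 15 of 17 listed genes could be tested. They were ligands, receptors, antagonists and mediators of the Nodal pathway, together with Bmp4, a related ligand gene outside that pathway. There were 6 higher and 5 lower in the Esrrb line over the Nanog-null line. Against the Esrrb line the Esrrb+Nanog line had 1 higher and 2 lower, and against the Nanog-null line 7 higher and 7 lower (median log2 changes 0.09, -0.10 and -0.15). The antagonist Lefty1 averaged 4.25 ± 0.14, 19.4 ± 9.45 and 151 ± 28.7 CPM in the Esrrb+Nanog, Esrrb and Nanog-null lines. The ligand gene Bmp4 averaged 76.2 ± 5.32, 74.6 ± 11.3 and 3.70 ± 0.755 CPM, and Pcsk6, which cleaves ligand precursors, 109 ± 11.4, 134 ± 18.7 and 16.3 ± 1.60 CPM in the same lines. For the Esrrb line over the Nanog-null line, where Gdf3 differed by -0.05, Bmp4 rose (4.32 ± 0.15, edgeR adjusted p = 4.21e-09), Pcsk6 rose (3.03 ± 0.12, adjusted p = 1.15e-08) and Lefty1 fell (-2.97 ± 0.29, adjusted p = 8.13e-06). Lefty2, its relative, averaged 11.4 ± 1.30, 96.2 ± 40.5 and 66.8 ± 7.08 CPM in the Esrrb+Nanog, Esrrb and Nanog-null lines. It fell in the Esrrb+Nanog line over the Esrrb line (-3.07 ± 0.25, adjusted p = 2.66e-05). In the Esrrb line over the Nanog-null line its change had the other sign than that of Lefty1 (0.53 ± 0.22, adjusted p = 0.0668). That change was called with no low-count filter (1.67e-08) and without Esrrb replicate 2 (0.00544) or 3 (0.0494).

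Of 7 relatives and co-factors of Apobec1, 5 could be tested, with 3 higher and 0 lower, 0 and 1, and 2 and 1 called in the 3 comparisons in the same order (median log2 changes 0.32, -0.09 and 0.26). Apobec3, an antiviral deaminase gene, rose in the Esrrb line over the Nanog-null line (0.73 ± 0.10, adjusted p = 8.2e-05), where Apobec1 was lower. Rbm47, an editing co-factor, fell in the Esrrb+Nanog line over the Esrrb line (-0.81 ± 0.09, adjusted p = 0.000277). Syncrip, another RNA-binding partner, rose in the Esrrb line over the Nanog-null line (0.36 ± 0.08, adjusted p = 0.0028).

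Of 11 other hexose transporter genes, 6 could be tested, with 3 higher and 1 lower, 1 and 1, and 2 and 1 called (median log2 changes 0.39, -0.27 and 0.12). Slc2a1, the other abundant one, averaged 795 ± 63.3 CPM in the Esrrb+Nanog line, 1047 ± 81.5 in the Esrrb line and 488 ± 80.7 in the Nanog-null line. It rose in the Esrrb line over the Nanog-null line (1.10 ± 0.11, adjusted p = 1.03e-05), where Slc2a3 differed by -0.19. Its fall in the Esrrb+Nanog line over the Esrrb line (-0.40 ± 0.11, adjusted p = 0.0332) lost its call with library totals (0.0772) and without any of Esrrb+Nanog replicates 2 (0.114) and 3 (0.101), Esrrb replicates 1 (0.105) and 2 (0.0691) and Nanog-null replicate 3 (0.0632). Slc2a6, at 0.283 ± 0.0818 CPM in the Esrrb line and 1.38 ± 0.491 in the Nanog-null line, fell between these lines (-2.25 ± 0.36, adjusted p = 0.000313). Slc2a6 was the 1 higher call in the Esrrb+Nanog line over the Esrrb line (1.29 ± 0.39, adjusted p = 0.0484). That call was lost with DESeq2 (0.0578) and without any 1 of the Esrrb+Nanog replicates (up to 0.15). It was also lost without Esrrb replicate 1 (0.155) or 3 (0.138) or Nanog-null replicate 3 (0.0696). Other calls among the hexose transporters also depended on single libraries. Of the relatives of Foxj2, Foxj1 rose in the Esrrb line over the Nanog-null line (0.80 ± 0.20, adjusted p = 0.00533), and Foxj3 rose in the Esrrb+Nanog line over the Esrrb line (0.28 ± 0.08, adjusted p = 0.0337), a call lost in a fit of only the 2 lines (0.056) and without any library of either line (up to 0.122, without Esrrb+Nanog replicate 2) except Esrrb+Nanog replicate 3. Among 9 partners of Necap1 in endocytosis, 5 were higher and 1 lower, 1 and 0, and 5 and 0 (median log2 changes 0.20, 0.06 and 0.23). Ap2m1, an AP-2 adaptor subunit gene, rose in the Esrrb+Nanog line over the Nanog-null line (0.96 ± 0.08, adjusted p = 1.43e-06). The clathrin light chain gene Cltb averaged 40.1 ± 5.93, 44.4 ± 10.1 and 12.8 ± 0.687 CPM in the Esrrb+Nanog, Esrrb and Nanog-null lines, while Necap1 stayed between 63.9 and 75.0 CPM.

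**Figure D4:**
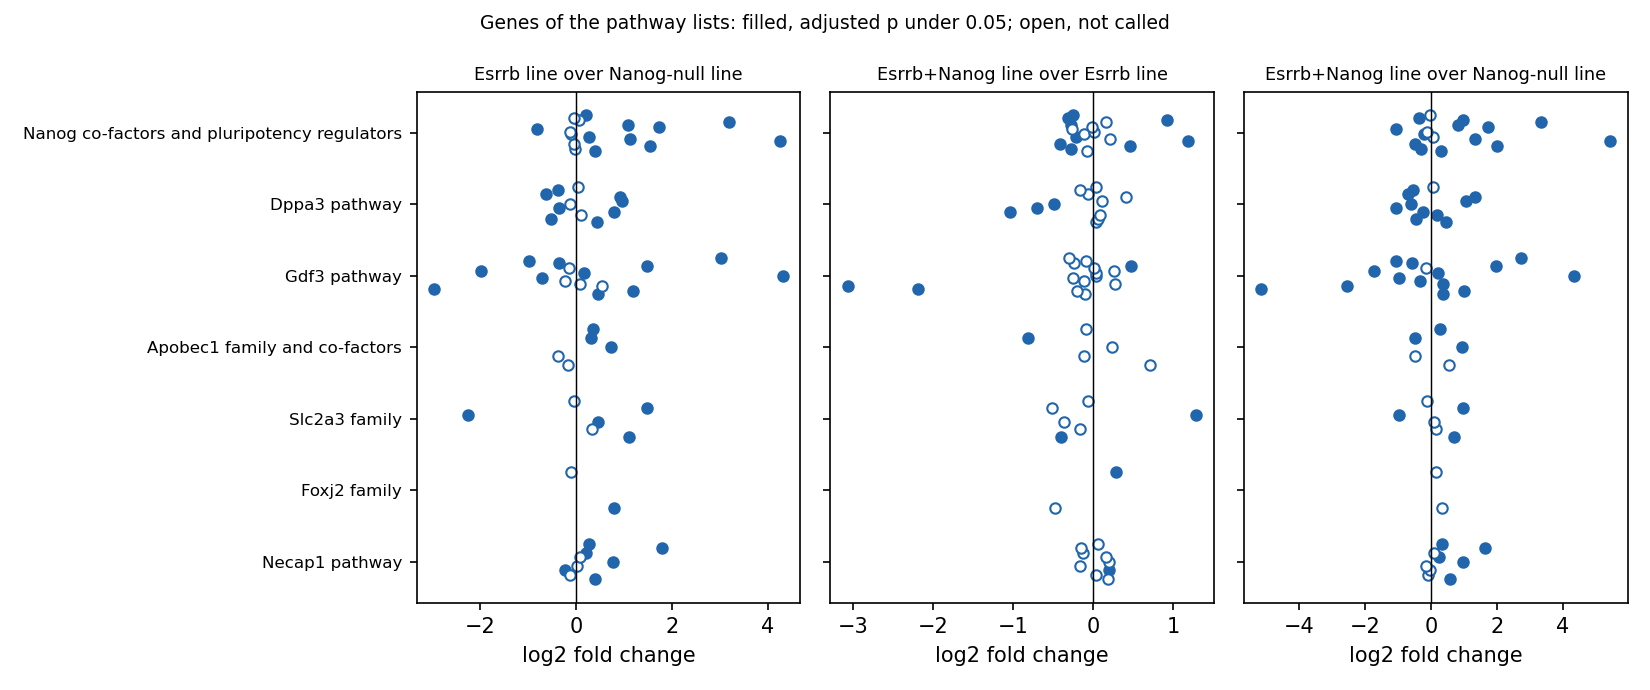
Fitted log2 fold changes of the tested genes in the 7 lists (points, filled where the adjusted p was under 0.05 and open where not), 1 panel per comparison. The middle panel, the Esrrb+Nanog line over the Esrrb line, has the fewest filled points, 20 genes against 43 in the left and 48 in the right panel, as it has the fewest calls over all genes (2135 against 7849 and 8816).

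As a check of cell identity, 7 embryonic stem cell markers summed to 3187 to 3394 CPM in the Esrrb+Nanog libraries, 3390 to 3509 in the Esrrb libraries and 2458 to 2679 in the Nanog-null libraries, with none at 0. Its markers did not all follow that order. Pecam1, which the cells were sorted for, ran from 46.4 to 54.2, from 52.0 to 68.5 and from 93.4 to 110 CPM in the Esrrb+Nanog, Esrrb and Nanog-null lines, and Sox2 from 590 to 673, from 685 to 809 and from 734 to 820 CPM. Primitive endoderm markers (8) summed to 92.3 to 142, 111 to 144 and 261 to 404 CPM in the same lines, of which Lrp2 alone gave 70.1 to 126, 81.2 to 89.0 and 242 to 392 CPM. In that list other markers were not highest in the Nanog-null line. Gata6 ran from 3.61 to 10.6, from 13.5 to 39.0 and from 1.39 to 6.08 CPM. Pdgfra ran from 1.77 to 3.86, from 5.83 to 14.1 and from 0.463 to 4.43 CPM. Sox7 ran from 1.92 to 2.53, from 1.76 to 2.07 and from 0.139 to 0.693 CPM. Sox17 ran from 0.516 to 0.924, from 0.621 to 2.38 and from 0.185 to 1.31 CPM. The Gata4 ranges overlapped in all lines (1.99 to 3.43, 2.52 to 4.34 and 1.62 to 4.46 CPM). Besides Lrp2, Dab2 was highest in the Nanog-null line (7.41 to 18.1 CPM), as was Foxa2 with overlap (0.324 to 0.808 CPM).

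Trophoblast markers (7) summed to 29.3 to 36.7, 21.8 to 26.4 and 55.2 to 197 CPM in the Esrrb+Nanog, Esrrb and Nanog-null lines. Most of the Nanog-null sums came from the keratin genes Krt8 (18.1 to 74.2 CPM) and Krt18 (24.4 to 102 CPM). Krt7 and Gata3 were also highest there, at lower levels. Eomes ran from 8.95 to 9.76, from 7.14 to 8.49 and from 7.13 to 9.19 CPM in the same lines. Cdx2 was at most 1.00 CPM and Elf5 at most 0.121 CPM in any library. Fibroblast markers (6) summed to 11.5 to 18.5, 10.3 to 18.8 and 16.3 to 86.3 CPM in the same lines. Acta2, a fibroblast marker, was at most 0.105 and 0.0943 CPM in the Esrrb+Nanog and Esrrb lines and ran from 7.69 to 54.3 CPM in the Nanog-null line, while Thy1 ran from 6.05 to 12.0, from 6.33 to 12.5 and from 2.04 to 2.41 CPM. The trophoblast and fibroblast sums were both highest in Nanog-null replicate 2. In that library Dppa3 (51.9 CPM), Apobec1 (9.77 CPM) and Necap1 (63.9 CPM) were the lowest of their line, and Slc2a3 (1514 CPM), Foxj2 (8.62 CPM) and Gdf3 (94.8 CPM) the highest. Myeloid markers (5), relevant because Apobec1 and Slc2a3 are active in blood cells, summed to 5.42 to 6.79, 3.45 to 5.16 and 4.72 to 5.85 CPM. Nearly all of this was Cd68, with 5.39 to 6.71, 3.35 to 5.16 and 4.63 to 5.70 CPM in the Esrrb+Nanog, Esrrb and Nanog-null lines. Ptprc, Csf1r and Itgam were at most 0.134 CPM in any library, and Adgre1 had no read in any line. Elf5 in the Esrrb line, Col3a1 in the Esrrb+Nanog line, Csf1r in both of these and Ptprc in the Nanog-null line were also at 0. The part of these cell types in the values of the 7 genes was not tested. Without Nanog-null replicate 2, the log2 change of Dppa3 in the Esrrb line over the Nanog-null line was -5.40 and that of Apobec1 -1.57.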

How the data were processed

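Total RNA, depleted of ribosomal RNA, was sequenced from 3 lines, with 3 libraries each. The authors deposited 1 table of raw read counts per Ensembl gene; bcl2fastq 2.19.1, STAR 2.5.3a and mm10 appear in the submitters' processing notes, with strand and counting settings not given in the sources used here. Of its columns, 6 library columns match no sample analysed here and were not used. Counts were fitted over all 9 libraries with edgeR 4.0.16 (R 4.3.3; TMM factors, filterByExpr, quasi-likelihood test, Benjamini-Hochberg adjustment over 16198 genes, threshold 0.05) and the code was tested on simulated data. TMM rescales libraries to a common composition, so changes are relative to most genes. Symbols and positions come from GENCODE M21, and copies were sought with blastn 2.17.0. Alternatives were DESeq2 1.42.0, other scaling factors, no low-count filter, only the 2 lines compared, a replicate block and each library left out.

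The genes and lists were chosen with earlier results of these data known. The text names the locus genes, called genes within 1 Mb, the 5 most alike to Nanog and to Dppa3 (1 of them is not reported here), and, from each list, genes among the 2 with the smallest adjusted p in a comparison. Uhrf2 is named in addition, beside its relative Uhrf1. Marker genes are named for their levels only. At 21808120 reads or more per library, counting error is largest for Dppa3 and other genes under about 1 CPM. It also matters for genes of a few CPM. Examples are Apobec1 (65 to 117 reads per library in the Esrrb+Nanog and Esrrb lines) and 1700063H04Rik (17 to 75 reads).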

Additional observations from a re-analysis of the deposited data

How the results depend on the processing

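Of 315 alternative values for the log2 changes of the 7 locus genes, 313 moved by less than the spread between replicates. The others were Gdf3 in the Esrrb line over the Nanog-null line (-0.10 without Nanog-null replicate 3) and Necap1 in the Esrrb+Nanog line over the Nanog-null line (0.16 with library totals). For the Esrrb line over the Nanog-null line, the 15 alternatives gave -5.59 to -5.19 for Dppa3, 1.01 to 1.14 for Nanog and -1.76 to -1.36 for Apobec1. For the Esrrb+Nanog line over the Esrrb line they gave -1.96 to -1.56 for Dppa3 and 3.01 to 3.30 for Nanog. Leaving out 1 library at a time moved the genes called in the Esrrb+Nanog line over the Esrrb line between 1105 and 2374 (2135 with all 9), with 1105 without Esrrb replicate 1, 1215 without Esrrb+Nanog replicate 2 and 1378 without Esrrb replicate 3. List genes called there ran from 11 to 21 (20 with all 9), with 11 without Esrrb+Nanog replicate 2 or Esrrb replicate 1, 12 without Esrrb replicate 3 and 13 without Nanog-null replicate 3. Neighbours called in the Esrrb line over the Nanog-null line ran from 1 to 3, with 1 without Esrrb replicate 2 or Nanog-null replicate 1. The cause was not tested. Fewer libraries leave less information on the spread by construction. Dppa3, with 8 to 12 reads per Esrrb+Nanog library, is limited by depth.

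Replicate numbers were not taken to pair the libraries. Same-numbered deviations correlated at -0.02 to 0.28, and no comparison had every pair above 0.1. The largest were 0.16 and 0.28, for replicates 1 and 2 of the Esrrb+Nanog line over the Esrrb line. Such values, from 3 libraries per line, cannot decide whether same-numbered libraries shared variation. A replicate block gave 8000, 2381 and 8946 genes called in the Esrrb line over the Nanog-null line, the Esrrb+Nanog line over the Esrrb line and the Esrrb+Nanog line over the Nanog-null line, against 7849, 2135 and 8816 without it.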
